A study of Drosophila melanogaster with 12 samples.

Results

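Replication timing was compared between follicle cells of the adult ovary and wing discs of the larva, the 2 tissues of the series that were profiled by sequencing cells in S phase against cells in G1. The comparison took in 4 of the 12 libraries of the series, 2 per tissue, and every window of X, 2L, 2R, 3L, 3R and 4, which was 120166 windows. Follicle cell nuclei came from Oregon-R females kept on wet yeast for 2 days, with about 200 pairs of ovaries dissected and their nuclei stained with DAPI and sorted for S phase. Wing discs came from females of the Yellow-white strain at the third larval instar, also sorted for S phase. Neither group is labelled with a drug or with a mutation beyond the markers that give the Yellow-white strain its name. The follicle cell libraries were made with the NEBNext Ultra II kit and the wing disc libraries with the Rubicon Thruplex kit. Tissue, strain, stage and kit therefore differed together, and their parts in any difference cannot be told apart. The other 8 libraries, of salivary glands and fat bodies, were used only to give levels at a few loci.

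In S phase, early replicating DNA reaches a higher copy number than late replicating DNA, so the ratio of S phase to G1 reads along a chromosome orders its regions in time. Active, gene-rich chromatin generally replicates early, and the heterochromatin around centromeres replicates late. Wing disc cells are diploid and divide by mitosis. Follicle cells first divide, then pass through endocycles, which copy the genome without division, and then stop genomic replication while a few eggshell gene loci are replicated over and over. That last step, chorion gene amplification, is a mark of the follicle cell. The score used throughout, rawRT, has no unit: a high score means more copies, read as earlier replication, and the authors centred and scaled it, so that it orders regions within a library and does not count copies.

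The chorion genes were used to check the tissue label. Cp18, Cp15, Cp19 and Cp16 encode proteins of the eggshell and lie next to each other at 66D on 3L. The 150 bases that precede each of these genes, and those before the X-linked Cp36 and Cp38, are shown because all 6 hold the motif TCACGT, an element known from chorion gene promoters, and because these 2 gene groups differ in score. The sequences are RefSeq (Release 6, dm6 coordinates), all on the plus strand and written 5′ to 3′, with the motif in capitals.
Cp18, chr3L:8726641-8726790: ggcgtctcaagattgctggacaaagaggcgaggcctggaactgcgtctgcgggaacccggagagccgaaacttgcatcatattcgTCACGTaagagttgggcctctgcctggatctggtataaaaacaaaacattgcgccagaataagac
Cp15, chr3L:8728331-8728480: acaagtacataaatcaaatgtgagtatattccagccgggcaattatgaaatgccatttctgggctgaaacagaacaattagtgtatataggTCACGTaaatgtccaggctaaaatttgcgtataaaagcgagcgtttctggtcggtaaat
Cp19, chr3L:8729715-8729864: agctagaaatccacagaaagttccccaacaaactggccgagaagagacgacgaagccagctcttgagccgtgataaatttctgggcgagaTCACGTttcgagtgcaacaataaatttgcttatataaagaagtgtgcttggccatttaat
Cp16, chr3L:8731794-8731943: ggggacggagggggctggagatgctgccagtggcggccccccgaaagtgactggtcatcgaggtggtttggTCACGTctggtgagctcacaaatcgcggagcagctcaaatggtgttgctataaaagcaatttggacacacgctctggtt
Cp36, chrX:8479169-8479318: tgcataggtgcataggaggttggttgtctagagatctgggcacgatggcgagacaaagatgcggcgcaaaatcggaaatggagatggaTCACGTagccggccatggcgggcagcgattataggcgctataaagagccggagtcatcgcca
Cp38, chrX:8481687-8481836: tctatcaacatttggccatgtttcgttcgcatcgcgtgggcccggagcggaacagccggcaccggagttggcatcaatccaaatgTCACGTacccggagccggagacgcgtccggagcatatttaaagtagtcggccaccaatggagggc

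The motif was searched on both strands, as TCACGT and ACGTGA. It began between 59 and 79 bases before the start of each of the 6 genes. Of all 13764 protein-coding genes tested, 2.75% held it in the same 150 bases. A match of letters is a description and says nothing of binding, and the 4 genes at 66D and the 2 on X share it although their scores differed as follows.

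At 66D the mean score over the gene group and 10 kb on each side was 3.13 and 1.72 in the follicle cell libraries, against 0.248 and 0.0933 in the wing disc libraries. Measured against the median of the flanks 50 to 150 kb away, the excess was 2.97 and 1.63 in follicle cells and −0.0919 and −0.172 in wing discs. Both follicle cell libraries lay above both wing disc libraries, and the first follicle cell library was the higher by far. The mean excess was 2.30 ± 0.948 in follicle cells and −0.132 ± 0.0569 in wing discs (SD, n = 2 each). Taken gene by gene, with the 10 kb on each side, all 4 genes passed limma's test across all genes. Cp18 scored 3.08 and 1.64 in follicle cells, against 0.0344 and 0.0475 in wing discs, a difference of 2.32 ± 0.330 (SE; limma, adjusted p = 0.000443). The other 3 genes share most of their windows with Cp18, and their differences were 2.28 to 2.36.

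The chorion genes of 7F on X, Cp7Fa, Cp7Fb, Cp7Fc, Cp36 and Cp38, showed no comparable excess. The group's excess over its flanks was 0.529 and 0.265 in follicle cells and 0.189 and 0.347 in wing discs, so the libraries of the 2 tissues overlapped. Cp36 scored 0.354 and 0.0610 in follicle cells and 0.0563 and −0.0110 in wing discs, and its difference of 0.185 ± 0.116 (SE) did not pass the test (limma, adjusted p = 0.211). At 62D on 3L, where yellow-g and yellow-g2 encode eggshell proteins, the group's excess was −0.287 and −0.283 in follicle cells and −0.569 and −0.353 in wing discs. The level at 62D lay below its flanks in all 4 libraries, and by less in follicle cells. The 66D locus was thus the one of the 3 with a clear local excess of follicle cell DNA.

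**Figure D1:**
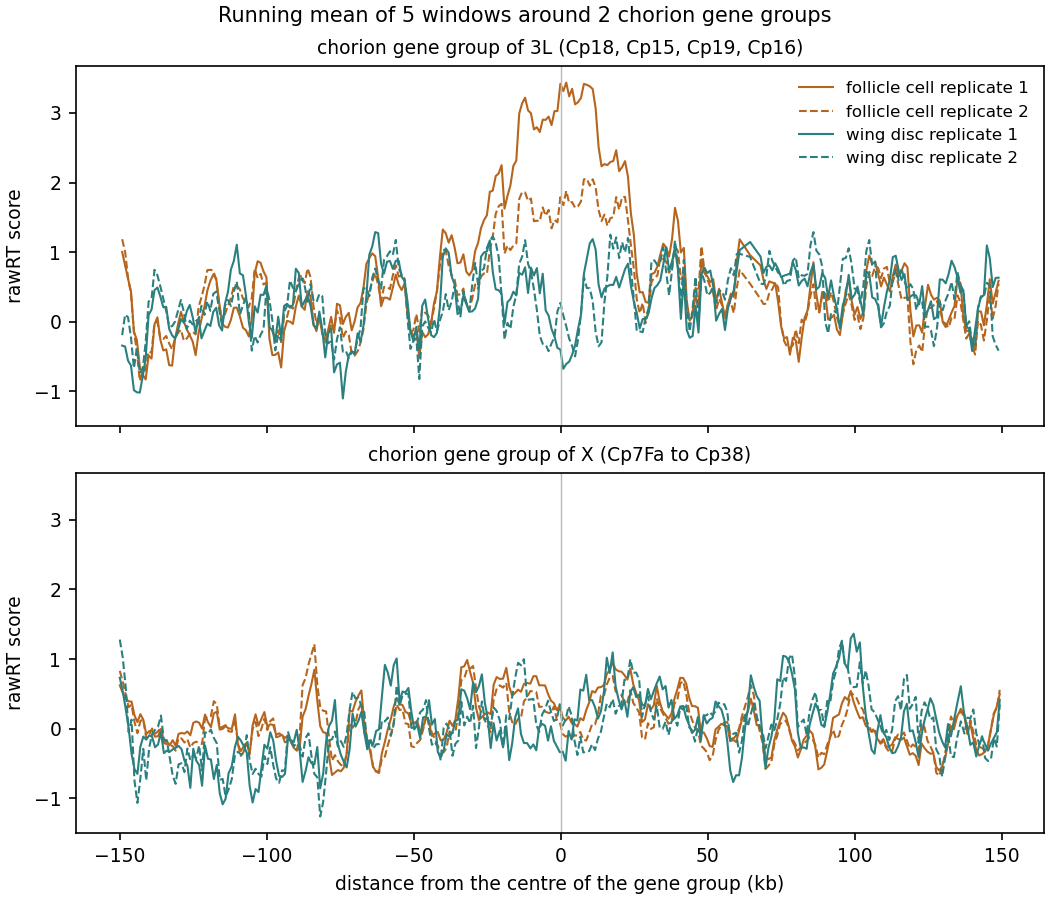
Running mean of 5 windows of the rawRT score (y axis, no unit) against the distance in kb from the centre of the chorion gene group of 3L at 66D (top) and of X at 7F (bottom), for the 2 follicle cell and 2 wing disc libraries. Over the 66D group and 10 kb on each side the first follicle cell library averaged 3.13 and the second 1.72, while the wing disc libraries averaged 0.248 and 0.0933. At 7F the lines of both tissues overlap.

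Across the genome the profile of each tissue was repeatable and the tissues differed. In bins of 50 consecutive windows, bin means correlated with Pearson's r = 0.982 between the follicle cell libraries and 0.942 between the wing disc libraries, over 2404 bins. Between tissues the 4 library pairs gave r from 0.351 to 0.404. It depended on the bins used: between the tissues' means r was 0.385, 0.547 without the 4 bins that touch the X step described next, and 0.197 without the proximal 3 Mb and chromosome 4. Spearman's rho was 0.337, 0.341 and 0.322 over the same sets. These are correlations across bins of the same libraries and are given as descriptions. Single windows were noisier, with r = 0.926 between follicle cell libraries, 0.634 between wing disc libraries and 0.415 to 0.429 between tissues. Bin means spread more in follicle cells, with an SD of 0.702 and 0.707, than in wing discs, with 0.404 and 0.426. The number of reads behind a score is unknown, so no counting error could be given.

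A pair of features on X and 2L stood apart from the rest and entered the scores around them. On X, a step covered 127 kb (chrX:2796100-2923500), from the edge of w, the white eye colour gene, through kirre, which encodes a cell adhesion protein of muscle fusion. Its median score was 10.8 and 11.005 in the follicle cell libraries, against −3.73 and −2.07 in the wing disc libraries. Of its 112 windows, 72 had a score in each follicle cell library, against 29 and 41 in the wing disc libraries, and those of wing discs took only 7 and 9 distinct values. In the salivary gland and fat body libraries the median over the same windows lay between −0.865 and 0.259, so the step was seen in the libraries of this comparison and in none of the other 8.

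The step also set the scale of X. The windows of X had an SD of 1.00 in all 4 libraries, and without the step it was 0.777 and 0.772 in follicle cells and 0.983 and 0.976 in wing discs. When the step was left out and X rescaled, 1438 bins were called, the same number as with it, but the scores of X moved. Of these bins, 702 were higher in follicle cells and 736 lower, against 683 and 755 with the step. The difference of the X gene br went from −0.842 to −0.940, and that of the bin at chrX:21654000-21792000 from 3.08 to 3.74. The 2 bins with fewer than 25 scores in a library, both in the step, were not tested.

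On 2L, a step of 36 kb (chr2L:12865000-12901000) held no annotated protein-coding gene. ACXC, which encodes an adenylate cyclase, lies beyond its end and was not called. The step's median score was −4.00 and −2.88 in follicle cells, against 0.388 and 0.372 in wing discs. Among the other libraries, those of wild-type salivary glands, of the Oregon-R strain as the follicle cells were, had −6.82 and −8.37, those of SuUR mutants −0.0626 and −0.391, and those of Rif1 mutants −0.194 and −0.0315, while the fat body libraries had no score there. The step was low in follicle cells and wild-type salivary glands and near 0 in the others that had a score. The part of strain in it was not tested.

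**Figure D2:**
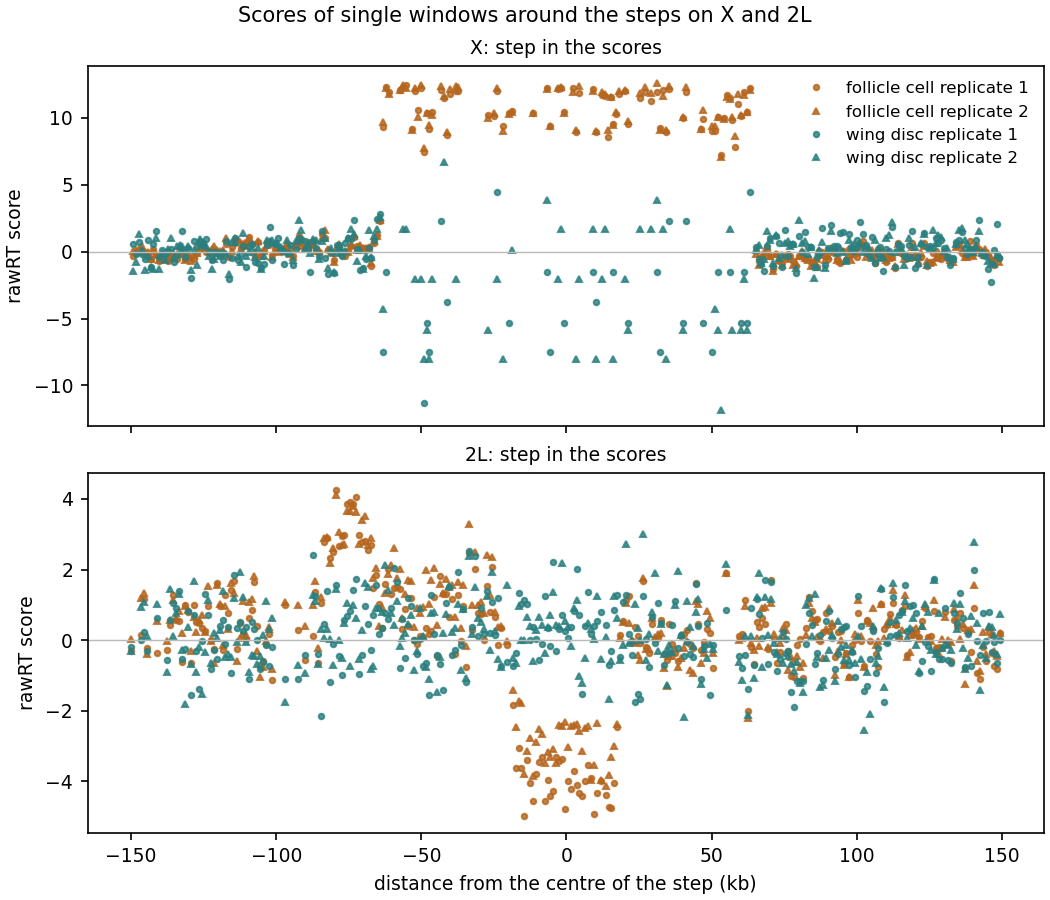
rawRT score of single windows (y axis, no unit; the panels have separate scales) against the distance in kb from the centre of the X step (top) and the 2L step (bottom), in 2 follicle cell and 2 wing disc libraries. On X the follicle cell windows stand at a median of 10.8 and 11.005 and many wing disc windows are missing, and on 2L the follicle cell windows drop to a median of −4.00 and −2.88.

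The study's own definition of a variant region, an analysis of variance over the windows of each bin followed by a length limit of 200 kb, found 143 of 2404 bins, or 5.95%, in 29 regions. Of the bins, 51 were higher in follicle cells, or 2.12%, and 92 lower, or 3.83%. The score was higher in follicle cells in 13 of the regions and lower in 16. All 143 bins also passed limma's test on the library means. Windows of a library are not replicates, so the test over libraries is given beside it. Without the proximal 3 Mb of the arms and chromosome 4, 77 bins met the definition, of which 18.2% were higher in follicle cells, and with each library divided by the SD of its bin means, 104 bins did, of which 70.2% were higher in follicle cells, against 35.7% of the 143.

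With limma on the bin means, 1438 of 2402 bins were called, or 59.9%, of which 683 were higher in follicle cells (28.4%) and 755 lower (31.4%). Both libraries of one tissue lay above both of the other in 80.7% of bins. With 2 libraries in each tissue and nothing to say that they came from separate sets of animals, these p-values measure only the spread between these libraries, which was small, with a median SD between replicates of 0.0526 in follicle cells and 0.0656 in wing discs. Most called differences were modest: their median size was 0.406, and 900 were under 0.5. A difference of at least 1 was found in 121 bins, which was 5.04% of those tested, 58 of them higher in follicle cells (2.41%) and 63 lower (2.62%). An exact permutation test of a single bin cannot go below p = 0.333 with 2 libraries against 2.

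**Figure D3:**
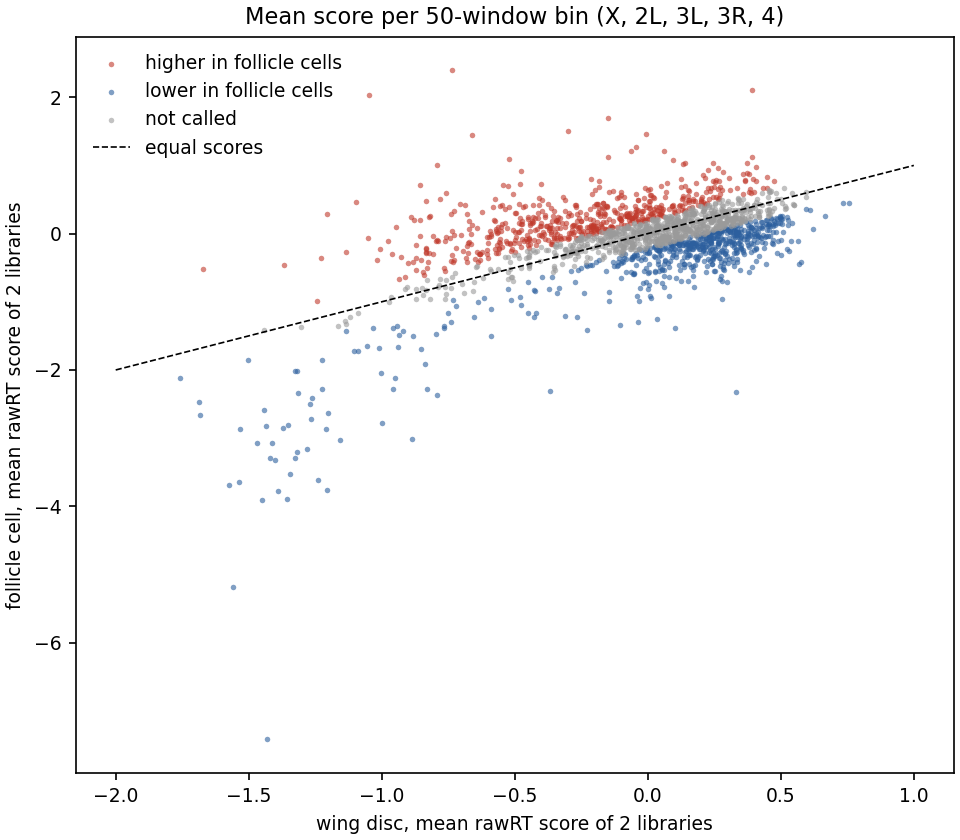
Mean rawRT score of each 50-window bin of X, 2L, 3L, 3R and 4 in follicle cells (y axis) against wing discs (x axis), each the mean of 2 libraries, coloured by limma's call. The points run along y = 0 more than along the dashed line of equal scores for wing disc scores from −1 to 0, and a tail of bins falls to −7.42 in follicle cells where no wing disc bin is below −1.76.

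Bins that were early in one tissue and late in the other were a minority. With each tissue's bins ranked into quartiles, Q1 the earliest and Q4 the latest, 35.6% of bins were in the same quartile in both tissues, against 75.8% between the follicle cell libraries and 68.2% between the wing disc libraries. Single windows agreed less well between the wing disc libraries, at 44.7%, and 42.1% of windows were in the same quartile of both tissues' means. Of the 2404 bins, 92 (3.83%) were in Q1 in follicle cells and Q4 in wing discs, with a median score of 0.420 in follicle cells and −0.478 in wing discs. The reverse was seen in 80 bins (3.33%), with −0.366 in follicle cells and 0.291 in wing discs. In the first set 36 bins lay in the proximal 3 Mb of an arm or on chromosome 4, and in the second none. Of all 2404 bins, 2213 lay outside those parts. Of the 296 bins in Q4 in both tissues, 76 lay within them. The first and second sets were also unlike in content. The first had a median of 4 protein-coding genes per 100 kb and 40.7% GC, and the second 12.4 genes and 42.8% GC.

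The same contrast was seen in all called bins. The bins higher in follicle cells had a median of 8 genes per 100 kb and 41.5% GC, those lower in follicle cells 11.8 genes and 42.9% GC, and those not called 12.0 genes and 42.6% GC. Across 2402 bins, the density of genes rank-correlated with the follicle cell score at a Spearman's rho of 0.129 and with the wing disc score at 0.321. GC content did so at −0.0581 in follicle cells and 0.234 in wing discs. Genes and GC thus ordered the wing disc profile more closely than the follicle cell profile, as a description across bins that share libraries and base composition.

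Among bins that differed by at least 1, the median cover by annotated transposable elements was above that of all bins. They covered a median of 9.08% of the bins higher in follicle cells and 7.48% of those lower, against 0.124% of all bins tested. Many of these bins lay in the proximal 3 Mb of an arm, 34 of the 58 higher and 35 of the 63 lower. Without the proximal 3 Mb and chromosome 4 the medians were 4.69% and 3.91%, against 0.0740%. Over 20% was covered in 17 of the 58 higher bins and in 4 of the 63 lower ones, and in 129 of all 2402. Such bins are long, since a window holds a fixed length of uniquely alignable sequence: the median length was 70.9 kb for the higher and 79.9 kb for the lower bins, against 50 kb for all.

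The bins with the largest differences outside 2R, whose single loci are not named, were taken one by one. On 2L, a bin of 98.0 kb (chr2L:20138000-20236000) with no annotated protein-coding gene, of which transposable elements covered 60.5%, scored 2.50 and 2.30 in follicle cells, against −0.745 and −0.724 in wing discs. Its difference was 3.13 ± 0.0893 (SE; limma, adjusted p = 1.97e-18), while the analysis of variance over its windows, at an adjusted p of 0.0208, did not pass the 0.01 of the study's definition. On X, a bin of 138 kb (chrX:21654000-21792000), also with no protein-coding gene and with 66.1% transposable elements, scored 2.08 and 1.98 in follicle cells and −0.752 and −1.34 in wing discs. In neither bin did the libraries of the tissues come near each other, which follows in part from picking bins by the size of their difference.

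The last bin of chromosome 4 (chr4:1257000-1319600) holds the end of Cadps, which encodes a protein that primes vesicles for secretion, and transposable elements cover 88.1% of it. It scored 1.44 and 1.45 in follicle cells, against −0.732 and −0.591 in wing discs. The limma test called this bin, whereas the analysis of variance over its 31 windows had an adjusted p of 0.754. On proximal 2L, 2 neighbouring bins (chr2L:21369000-21553000 and chr2L:21553000-21624000) hold Gr39b, a gustatory receptor gene, the replication-dependent histone gene cluster, Lamp1, which encodes a lysosomal membrane protein, and nompB, which is needed to build sensory cilia. The first scored 1.07 and 1.94 in follicle cells and −0.266 and −0.333 in wing discs, and the second 1.32 and 2.08 in follicle cells and −0.100 and −0.202 in wing discs. The second follicle cell library was clearly above the first in both. Histone genes are repeated copies of nearly the same sequence, and how reads were divided among them is not described.

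The largest differences towards a lower score outside 2R were at the centromeric end of 3R. The first bin (chr3R:493-168950) scored −7.60 and −7.23 in follicle cells, against −1.55 and −1.32 in wing discs, and the second (chr3R:168950-335320) −5.11 and −5.26, against −1.51 and −1.60. Neither holds a protein-coding gene. The next were the bin of the 2L step described above (−2.66), which is far from a centromere and has 2.86% transposable elements, and 2 bins of Pzl, which encodes a Piezo-like ion channel, at −2.55 and −2.54. With each library divided by the SD of its bin means, the first 2 bins of 3R had −3.95 and −2.01, against −5.98 and −3.62 as deposited, and the bins of Pzl −1.36 and −1.28.

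Pericentromeric DNA did not move as a whole. The proximal 3 Mb of 3R was lower in follicle cells, with a mean of −3.12 and −2.92 in the follicle cell libraries, against −1.31 and −1.498 in the wing disc libraries. Of its 29 bins, 26 were lower in follicle cells and 2 higher. On 3L the means were −0.595 and −0.603 in follicle cells and −0.875 and −0.964 in wing discs, with 15 of 27 bins higher and 9 lower in follicle cells. On X they were −0.146 and −0.122 in follicle cells and −0.479 and −0.513 in wing discs, with 23 of 38 bins higher and 4 lower. By these means the proximal 3 Mb was lower in follicle cells on 3R and higher in follicle cells on X and 3L. On X the median of the proximal bins was 0.0948 in follicle cells and −0.548 in wing discs, and the lowest bin of follicle cells was at −3.29. On 2L the mean of the proximal 3 Mb was above that of the rest of the arm in follicle cells, at 0.109 and 0.264. In wing discs it was slightly below, at −0.105 and −0.143. Of the 44 proximal bins of 2L, 18 were higher in follicle cells, 5 lower and 21 not called, with a median difference of 0.0710.

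**Figure D4:**
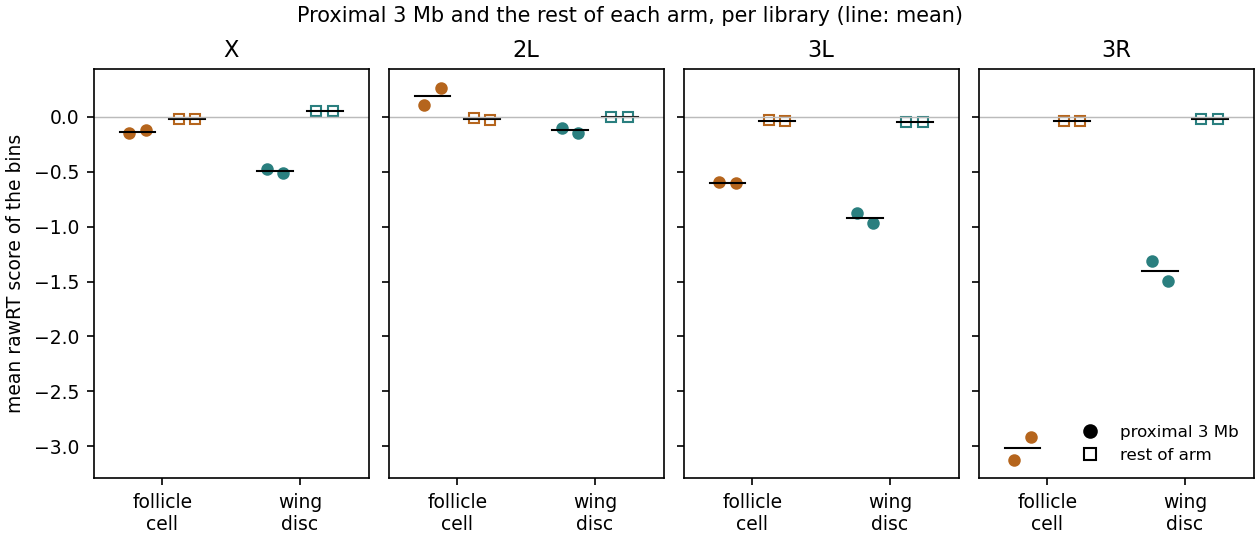
Mean rawRT score (y axis, no unit) of the bins in the proximal 3 Mb (filled circles) and the rest (open squares) of X, 2L, 3L and 3R, one point per library and a line at the mean of 2. The proximal part of 3R lies near −3 in follicle cells and near −1.4 in wing discs, and on 2L the proximal part lies above 0 in follicle cells and below 0 in wing discs.

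The longest regions by the study's definition, ranked by length in kb, repeated this split between arms. On 3R, 1134 kb (chr3R:828810-1963200) within Myo81F, a myosin gene that spans heterochromatin, averaged −3.23 and −2.94 in follicle cells and −1.32 and −1.55 in wing discs, and 1107 kb (chr3R:2251900-3359200) with Myo81F, Pzl and spok, a gene of ecdysone synthesis, averaged −3.29 and −3.15 in follicle cells and −1.11 and −1.33 in wing discs. The size of these 2 differences rested on the scale of the libraries. They were −1.65 and −2.0005 as deposited and −0.522 and −0.914 with each library divided by the SD of its bin means. On that scale the call for the gene Myo81F was lost (difference −0.182, limma, adjusted p = 0.250).

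On 3L, the longest regions were higher in follicle cells, but a shorter region between them was lower. That region, of 220 kb (chr3L:26543000-26763000), averaged −2.86 and −2.45 in follicle cells, against −1.40 and −1.30 in wing discs. The longest were as follows. One of 560 kb (chr3L:25732000-26292000) with FASN3, a fatty acid synthase gene, and l(3)80Fg averaged 0.398 and 0.386 in follicle cells, against −0.826 and −0.927 in wing discs. One of 473 kb (chr3L:27116000-27589000) with vtd, which encodes the cohesin subunit Rad21, RpL15, a ribosomal protein gene, and Dbp80, an RNA helicase gene, averaged 0.765 and 0.657 in follicle cells, against −0.510 and −0.577 in wing discs. The third longest was the 365 kb around the histone cluster of 2L. The third longest of the lower regions lay far from a centromere, on X (chrX:1427600-2016400), with −0.424 and −0.486 in follicle cells and 0.220 and 0.255 in wing discs. It is 589 kb long and holds 63 protein-coding genes, among them br, which encodes the Broad transcription factors of the ecdysone response. No region on chromosome 4 met the definition.

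Chromosome 4, which is small and largely heterochromatic but carries active genes, changed in few places. Of its 24 bins, 3 were higher in follicle cells, 5 lower and 16 not called, while 59.9% of all tested bins were called. The bins at its ends were the higher ones, and those lower were in between. The higher bin at the far end is that of Cadps, with 88.1% transposable elements and unusual scores in other libraries, as given above. The bin of ci, which encodes the transcription factor of Hedgehog signalling, and its neighbours (chr4:264-84762) scored 0.689 and 0.930 in follicle cells, against 0.118 and 0.309 in wing discs.

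Across genes, 8175 of 17425 were called by limma, or 46.9%, with 3300 higher in follicle cells (18.9%) and 4875 lower (28%). The median difference over all genes was −0.0690. Gene lists that fit the 2 tissues were read against these shares, with genes of 2R left out, and neighbouring genes share windows.

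**Figure D5:**
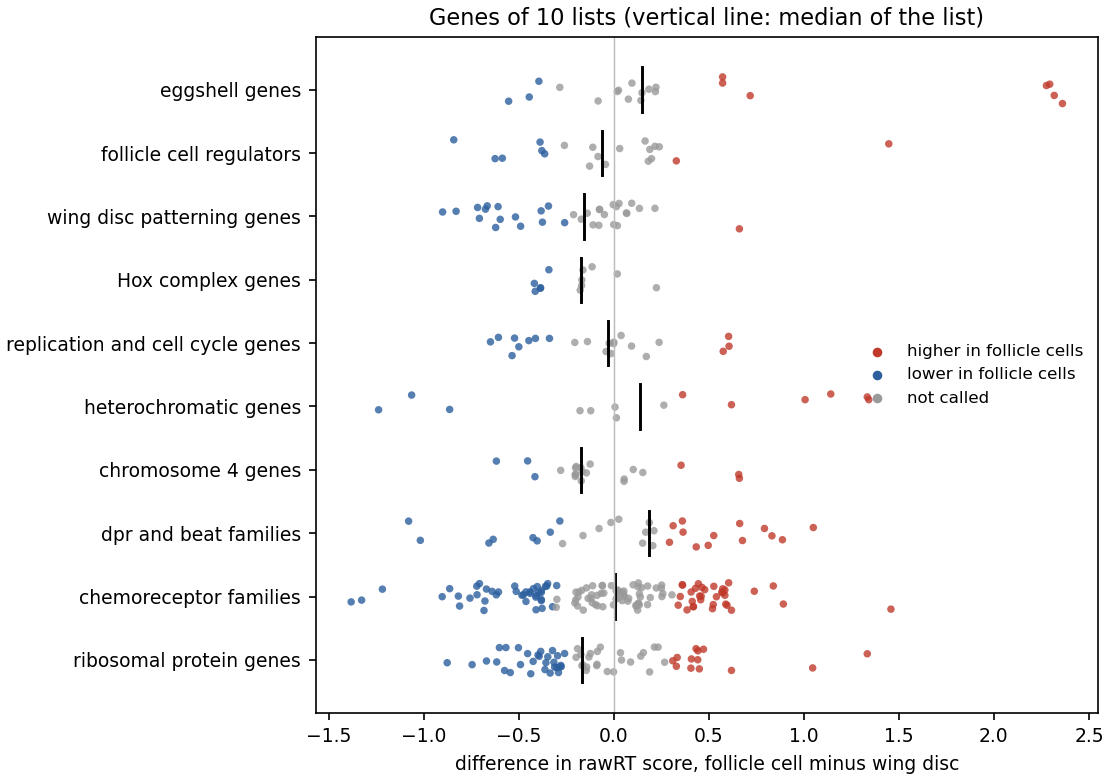
Difference in rawRT score (x axis, follicle cell minus wing disc, each the mean of 2 libraries) of the genes of 10 lists, coloured by limma's call, with a vertical line at each list's median. The 4 chorion genes of 66D stand at 2.28 to 2.36, and the median of the wing disc patterning genes lies at −0.155.

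The list of eggshell genes also holds the yolk protein genes Yp1, Yp2 and Yp3. Of its 21 genes, 7 were higher in follicle cells (33.3%), 3 lower (14.3%) and 11 not called, with a median difference of 0.149. Of all genes, 18.9% were higher and 28% lower. The 4 genes of 66D, yellow-g, yellow-g2 and Vm34Ca, a vitelline membrane gene, made up the 7. Lower were Vm26Ab and Vm26Ac, also of the vitelline membrane, and Yp3, which encodes a yolk protein. Vm26Ab scored −0.533 and −0.314 in follicle cells, against 0.0457 and 0.213 in wing discs (difference −0.553 ± 0.113 SE, limma, adjusted p = 0.00294). The calls of Vm26Ac and Yp3 were lost without the first follicle cell library. Most of the 21 listed genes were thus not called higher in follicle cells. The share that was higher exceeded that of all genes, with 4 of the 7 from the 66D locus.

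Of 20 regulators of follicle cells, 2 were higher (10%), 6 lower (30%) and 12 not called, beside 18.9% higher and 28% lower of all genes. kek1, which encodes an inhibitor of the EGF receptor, was the highest, with 1.83 and 2.11 in follicle cells, against 0.551 and 0.490 in wing discs (difference 1.45 ± 0.114 SE, limma, adjusted p = 1.63e-05), and its difference was 0.859 on the scale of the bin means' SD. It lies within 100 kb of the 2L step, on the side where follicle cell windows reached 4.27 and 4.12 and wing disc windows 2.53 and 2.40. aos, which encodes a secreted inhibitor of the same receptor, scored 0.490 and 0.419 in follicle cells and 0.233 and 0.0165 in wing discs, and its call was lost without either follicle cell library, without the second wing disc library and on the scale of the bin means' SD. br, Fas3, a cell adhesion gene, and ttk, which encodes the repressor Tramtrack, were lower, with differences of −0.842, −0.624 and −0.586.

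Of 34 genes that pattern the wing disc, 1 was higher in follicle cells, 15 were lower and 18 were not called. The share lower, 44.1%, stands beside 28% of all genes, and the median was −0.155 beside −0.0690. It was not particular to this list. The share was 44.8% in ribosomal protein genes and 41.7% in Hox complex genes, with medians of −0.167 and −0.173. In the rest of the lists 14.3% to 36.4% were lower. ac, which encodes the proneural factor Achaete, scored −0.355 and −0.403 in follicle cells, against 0.520 and 0.522 in wing discs (difference −0.900 ± 0.0953 SE, limma, adjusted p = 9.70e-05). Its neighbours sc, l(1)sc and ase were also lower and lie with it in a single region of the study's definition (chrX:258680-587090). hth, which encodes a homeodomain protein of the proximal wing, scored −0.585 and −0.654 in follicle cells and 0.172 and 0.247 in wing discs. rn, which encodes a zinc finger protein needed for the wing, scored −0.627 and −0.507 in follicle cells and 0.0640 and 0.234 in wing discs. The 1 higher gene was ci, with 0.802 and 1.02 in follicle cells and 0.256 and 0.249 in wing discs, a difference of 0.661 as deposited and 0.385 on the scale of the bin means' SD.

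Of 12 genes in and around the Hox complexes, which set segment identity, none was higher, 5 were lower (41.7%) and 7 were not called. Of all genes, 18.9% were higher and 28% lower. bcd, zen and Ama, neighbours on 3R, had differences of −0.417, −0.413 and −0.386. The calls of bcd and Ama were lost without the second follicle cell library. Of 22 replication and cell cycle genes, 3 were higher (13.6%) and 8 lower (36.4%), beside the same 18.9% and 28% of all genes. SuUR, which encodes a suppressor of replication forks in late regions, scored 0.719 and 0.751 in follicle cells, against 0.192 and 0.126 in wing discs (difference 0.576 ± 0.0961 SE, limma, adjusted p = 0.00101), or 0.368 on the scale of the bin means' SD. CycE, the G1/S cyclin, and chif, the activator of the Cdc7 kinase, were higher by 0.604 and 0.607. Cdk1, the mitotic kinase, Rbf, the retinoblastoma homologue, and Mcm2, a subunit of the replicative helicase, were lower, at −0.648, −0.606 and −0.535.

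Of 14 genes listed as known from heterochromatin, 6 were higher in follicle cells (42.9%) and 3 lower (21.4%), beside 18.9% and 28% of all genes. Among the lower ones was dbr, which is not near a centromere. Set1, a histone H3 lysine methyltransferase gene, scored 1.03 and 1.03 in follicle cells, against −0.287 and −0.342 in wing discs (difference 1.34 ± 0.0955 SE, limma, adjusted p = 8.36e-06). RpL15 and vtd followed with 1.33 and 1.14. Myo81F, spok and dbr were lower, at −1.24, −1.06 and −0.863, although dbr lies at the other end of 2L, at 21B. Members of one arm did not all move alike: of the genes of 3R in the list, Parp1, which encodes a poly(ADP-ribose) polymerase, was higher by 0.363, and on 3L nrm, Snap25, nvd and CkIIalpha were not called. With each library divided by the SD of its bin means, spok had −0.473 and Myo81F lost its call, as given above.

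Of 31 dpr and beat genes, which encode cell surface proteins of the nervous system, 13 were higher (41.9%) and 8 lower (25.8%), with a median of 0.187. Of all genes, 18.9% were higher and 28% lower. beat-Ic scored 0.00296 and 0.272 in follicle cells and −0.942 and −0.884 in wing discs, and beat-IIIa −1.98 and −2.05 in follicle cells and −0.880 and −0.990 in wing discs. The family thus held members of both directions. With each library divided by the SD of its bin means the difference of beat-IIIa was −0.340, against −1.08 as deposited. Of 134 chemoreceptor genes, 33 were higher (24.6%) and 41 lower (30.6%), with a median of 0.00566. The gustatory receptors Gr36a, Gr36b and Gr36c, next to beat-IIIa on 2L, had differences of −1.33, −1.38 and −1.22 as deposited. On the scale of the bin means' SD these were −0.652, −0.670 and −0.534. Of 67 ribosomal protein genes, which are active in nearly all cells, 13 were higher (19.4%) and 30 lower (44.8%), with a median of −0.167. RpL28 scored −0.422 and −0.619 in follicle cells, against 0.389 and 0.322 in wing discs. The highest were RpL15 and RpL10Aa, at 1.33 and 1.05. Of 21 genes on chromosome 4, 3 were higher (14.3%), 3 lower (14.3%) and 15 not called.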

How the data were processed

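The deposited table holds rawRT, a score that the authors made in windows of uniquely alignable sequence on dm6; per the methods, reads were aligned with BWA, duplicates were marked with Picard and GC content was corrected in the salivary gland and fat body libraries. The follicle cell and wing disc values came from an earlier G1/S experiment, and how their scores were made is not given in the sources used here. A second deposited score was smoothed by the authors with a cubic spline. Coordinates are those of the files. Chromosome lengths of the RefSeq Release 6 assembly were checked against the last windows before its genes and sequence were used.

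All windows were cut into bins of 50. Variant bins took an analysis of variance per bin with a Bonferroni-adjusted p under 0.01, merged into regions over 200 kb. Called bins and genes took limma 3.58.1 (R 4.3.3) on library means, Benjamini-Hochberg adjusted over all bins or genes, at 0.05, with at least 25 scores per bin or 5 per gene, a gene being its body and 10 kb on each side. Both procedures were tested on simulated data. Depth is unknown. The replicate numbers did not pair the libraries (r = −0.0226 between same-numbered deviations), so no block was used. Named were, outside 2R, in each direction the 3 longest regions, the 5 largest called bins, up to 3 called genes a list, the chorion genes and SuUR. Members, lists and flank distances of the amplified loci were chosen with earlier results of these data known.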

Additional observations from a re-analysis of the deposited data

Results flagged for a closer look

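By its mean score, the proximal 3 Mb of 2L differed in direction between the tissues. Its mean score less that of the rest of the arm was 0.209 in follicle cells, with 0.124 and 0.293 in the libraries, and −0.119 in wing discs, with −0.0993 and −0.138. Both libraries of each tissue moved the same way, and the difference was not tested. It was not a trait of every bin: of 44 proximal bins, 18 were higher in follicle cells, 5 lower and 21 not called. The median of these bins was 0.172 in follicle cells and 0.00453 in wing discs. Among them were the 4 bins around the histone cluster, which averaged 0.910 and 1.63 in follicle cells.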

How the results depend on the processing

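The bin size and length limit set the count of variant bins: 143 became 45 of 4807 with bins of 25 windows, 222 of 1201 with bins of 100, 353 with no length limit and 77 without the proximal 3 Mb and chromosome 4 (this last chosen after seeing the data), and 80 to 100 with a library left out. Called bins were 2451 with bins of 25 windows, which doubles the bins, and 777 with bins of 100; the other settings, a library left out included, gave 1150 to 1613. Called genes were 4204 with flanks of 2 kb, 10277 with flanks of 25 kb, 11926 with smoothed scores and 5267 to 7989 with a library left out. Windows in the same quartile were 42.1%, bins 35.6%, smoothed windows 34.2% and, with a library left out, windows 39.7% to 41.6%. With smoothed scores the follicle minus wing excess was 0.977 at 66D, against 2.43, and −0.0515 at 7F, against 0.129. With a library left out it was 1.76 to 3.10 at 66D. A replicate block called 143 variant bins, 1461 bins and 8523 genes. Of 71 named genes, bins and regions, 61 kept their call or value in every run made for them, and no call reversed. These runs were quantile normalization, scaling by the bin means' SD, a replicate block, a library left out and, for genes and bins, the X step left out. Other flanks, other bin sizes and smoothed scores were not run for them. Cp38, which was not called, went from 0.0958 to −0.0281 without the first follicle cell library and to −0.00279 when scaled. The cause of these changes was not tested.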
